A study of Arabidopsis thaliana with 6 samples.

Results

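CCA1, LHY, 6 REVEILLE (RVE) genes and the coactivator genes LNK1 and LNK2 form the part of the Arabidopsis thaliana circadian clock that is active from dawn into the day. The 10 genes were taken by locus identifier from the 33602 loci of the deposited expression table: AT2G46830 (CCA1), AT1G01060 (LHY), AT5G17300 (RVE1), AT5G37260 (RVE2), AT5G02840 (RVE4), AT5G52660 (RVE6), AT1G18330 (RVE7), AT3G09600 (RVE8), AT5G64170 (LNK1) and AT3G54500 (LNK2). They were measured by RNA-seq in whole seedlings of 2 genotypes, Col-0 (labelled wild type) and cfm6-1 (labelled CFM6-/-, same ecotype), with 3 libraries each. CFM6 is an RNA-binding protein with a CRM domain, and the study's title ties it to the splicing of intron 4 of mitochondrial nad5. All seedlings were 14 days old and came from half-strength MS medium with 1% sucrose at 22 °C, under 16 h of light and 8 h of dark. The labels name no other allele or treatment. The hour of harvest is not given in the sources used here. Most of these transcripts cycle each day, so a lower level at every hour and a shifted daily curve cannot be told apart in these samples.

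The plant clock is a set of transcription factors that repress and activate each other in sequence through the day. CCA1 and LHY are related MYB-like factors that peak at dawn and repress genes of the evening. RVE4, RVE6 and RVE8 are close relatives that do the opposite: with LNK1 and LNK2, which bind them but not DNA, they activate evening genes and genes of the late day. RVE1, RVE2 (also called CIR1) and RVE7 (also called EPR1) belong to another branch of the same family and act mainly in clock outputs, RVE1 in the daily rhythm of auxin. The factors of this family recognise the evening element, AAAATATCT, and the similar CCA1-binding site, AAAAATCT.

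Promoter sequences are shown because CCA1 and LHY were among the members with the lowest share of the wild type level, and because several members share the G-box, CACGTG, a site known to be bound by light-regulated factors such as HY5 and the PIF proteins. The 300 bases before the annotated gene start were read from the RefSeq genome (build TAIR10.1) on the strand of the gene, and capitals mark the G-box and, in LHY, the morning element CCACAC.
CCA1, chr2:19245291-19245590, plus strand: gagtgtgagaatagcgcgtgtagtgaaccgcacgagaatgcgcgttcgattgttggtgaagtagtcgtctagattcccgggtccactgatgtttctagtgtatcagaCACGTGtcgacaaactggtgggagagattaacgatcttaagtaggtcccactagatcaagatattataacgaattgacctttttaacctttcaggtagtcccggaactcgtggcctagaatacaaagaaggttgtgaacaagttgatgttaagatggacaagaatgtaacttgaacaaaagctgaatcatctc
LHY, chr1:37872-38171, minus strand: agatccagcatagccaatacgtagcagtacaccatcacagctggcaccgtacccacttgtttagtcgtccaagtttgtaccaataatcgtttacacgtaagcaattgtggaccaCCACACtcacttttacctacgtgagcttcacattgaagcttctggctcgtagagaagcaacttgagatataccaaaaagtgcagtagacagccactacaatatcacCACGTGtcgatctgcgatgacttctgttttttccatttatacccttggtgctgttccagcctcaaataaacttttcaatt
The G-box was present in 4 of the 10 member promoters, those of CCA1, LHY, RVE1 and RVE2, and in 7.09% of 27443 windows of this length before protein-coding genes, counted on both strands. It is not particular to the members. It was also found before 3 of 5 further RVE and LNK genes (ASG4, AT4G01280 and LNK3) and before 5 of 17 other clock genes (PRR9, PRR7, LUX, BOA and TIC). In RVE1 and RVE2 the G-box lay as follows, with 12 bases on each side.
RVE1, chr5:5693086-5693115, minus strand: gagaaagagcgaCACGTGgcaaagatggac
RVE2, chr5:14753234-14753263, minus strand: gaagaaatcctcCACGTGtcattagcatct
The CCA1-binding site was found before RVE2 and RVE6 and in 7.94% of all windows. The evening element was found in 1 member promoter, 42 to 50 bases before RVE7, and in 2.79% of all windows. The morning element was present before LHY and RVE4 (7.23% of all windows), and the LUX-binding site, searched as GATTCG or GATACG, before RVE4 and LNK2 (14.3%). None of the matches in the members overlapped another motif searched. RVE8 and LNK1 held none of these letters in the window.

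**Figure D1:**
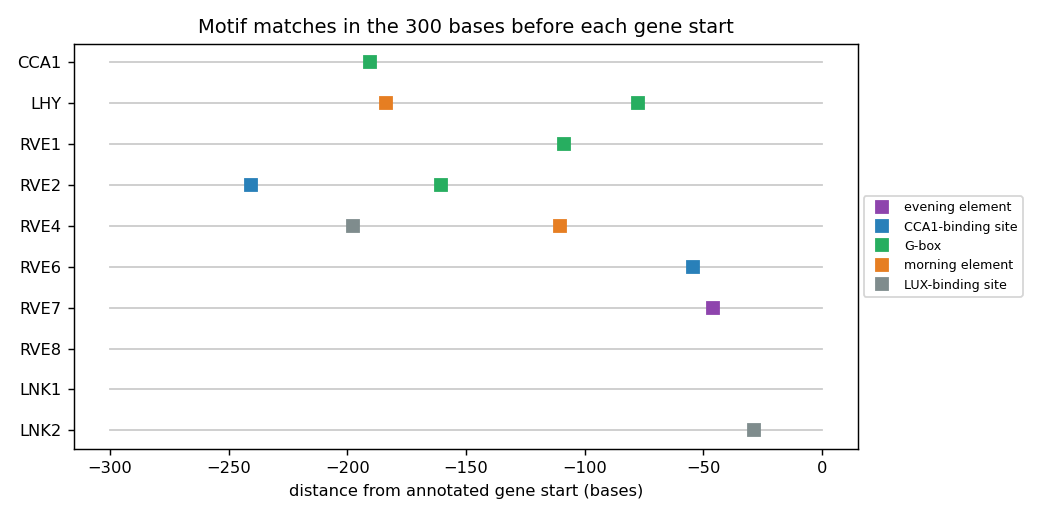
Matches of 5 motifs in the 300 bases before each of the 10 gene starts; the horizontal axis is the distance from the annotated start in bases and each square is 1 match on either strand. A G-box lies in the windows of CCA1, LHY, RVE1 and RVE2, and no match lies in those of RVE8 and LNK1.

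The libraries were of similar depth, 47.3 to 52.8 M reads (M stands for 1e6) as read from the steps between values. Levels are given in RPKM (reads divided by the length of the gene model in kilobases and by library depth), so they can be compared between genes. CFM6 (AT4G13070) stood at 33.2% of its wild type level in cfm6-1, 1.29 ± 0.0520 against 3.88 ± 0.207 RPKM (mean ± SD, n = 3). Of 20047 loci that reached 1 RPKM in at least 3 libraries, 68.8% differed between the genotypes at a limma adjusted p below 0.05 (Benjamini-Hochberg over all tested loci). A call by itself therefore says little here, and sizes are given beside it. A lower level in whole seedlings can come from fewer cells that express a gene or from less RNA per cell, which cannot be told apart in bulk samples.

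Most of the 10 genes were lower in cfm6-1. Of the 9 members that passed the filter, 7 fell and none rose, against 30.2% lower and 38.6% higher among all tested loci. RVE2 and RVE6 did not pass the test, and CCA1, which fell, passed the filter only through the wild type libraries. The median change of the 9 was -0.51 on the log2(RPKM + 1) scale, against 0.05 over all tested loci. LHY was below the filter and had no test in that fit. In a fit without the filter it fell as well, so that 8 of 10 members fell, against 24.7% lower and 30.6% higher of the 27471 loci in that fit. The 3 cfm6-1 values lay below all 3 wild type values in 7 of the 9 tested members and in LHY, against 32.8% of tested loci; 41.5% had all cfm6-1 values above. On the fitted scale the members spanned a wide range, from LNK2, with 1.1% of tested loci lower still, to RVE2, with 48.1% lower.

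**Figure D2:**
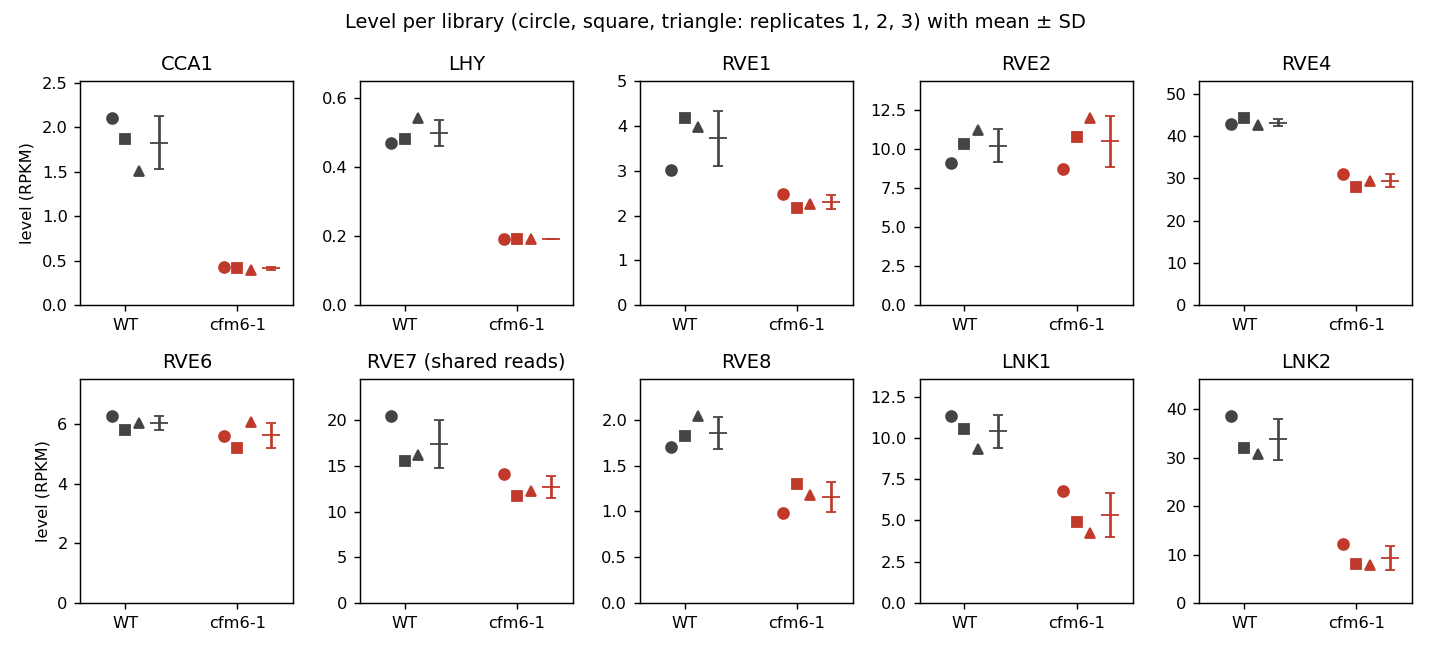
RPKM of each member in each library, wild type in grey and cfm6-1 in red, with circles, squares and triangles for replicates 1, 2 and 3 and the mean ± SD beside them; every vertical axis starts at 0. The groups overlap in RVE2 and RVE6, and in the other 8 panels all cfm6-1 points lie below all wild type points.

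CCA1 and LHY, the pair of dawn repressors, had the lowest mean levels of the 10 members. In replicates 1 to 3, the order used throughout, CCA1 stood at 2.10, 1.87 and 1.51 RPKM for the wild type and at 0.43, 0.42 and 0.40 for cfm6-1. The groups did not overlap, and the cfm6-1 libraries lay closer together than the wild type ones. All cfm6-1 values were below 1 RPKM, so CCA1 passed the filter only through the wild type libraries, where it was higher. CCA1 was at 22.8% of wild type and fell by 0.99 on the log2(RPKM + 1) scale (SE 0.09, limma adjusted p = 8.02e-05, and 1.72e-04 without the filter). That scale understates the change of a gene near 1 RPKM: when reads were rebuilt from the RPKM values and fitted with limma-voom, with no filter, the log2 change was -2.10 (SE 0.19, adjusted p = 4.50e-05). The rebuilt reads behind these values were 644 over the wild type libraries and 149 over the cfm6-1 libraries.

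LHY stood at 0.47, 0.48 and 0.54 RPKM in the wild type libraries and at 0.19 in each of the cfm6-1 libraries. No cfm6-1 value came near the wild type range, and the mean was 38.3% of wild type. The rebuilt reads numbered 241 for the wild type and 93 for cfm6-1, each over 3 libraries. Without the filter on low values the limma change was -0.33 on the log2(RPKM + 1) scale (SE 0.03, adjusted p = 1.64e-04), and in limma-voom on rebuilt reads -1.37 on the log2 scale (SE 0.17, adjusted p = 2.12e-04). CCA1 exceeded LHY by 4.47-, 3.90- and 2.80-fold within wild type libraries 1 to 3, and by 2.26-, 2.21- and 2.11-fold within the cfm6-1 libraries. The log2 ratio of CCA1 to LHY was 1.68 ± 0.32 in wild type and 0.83 ± 0.04 in cfm6-1 (with 0.1 RPKM added to each gene; n = 3, two-sided exact permutation p = 0.1, adjusted p = 0.14 over 7 gene pairs). With 3 libraries against 3, 0.1 is the smallest p this test can give.

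LNK1 and LNK2, the coactivators, both fell. LNK2 stood at 38.59, 32.01 and 30.74 RPKM in the wild type libraries and 12.11, 8.03 and 7.81 in those of cfm6-1. It was at 27.6% of wild type, with a log2 change of -1.77 (SE 0.16, limma adjusted p = 7.25e-05), the largest fall among the 9 tested members on the log2(RPKM + 1) scale. LNK1 stood at 11.33, 10.53 and 9.33 RPKM in the wild type libraries and 6.80, 4.90 and 4.27 in those of cfm6-1, or 51.2% of wild type (log2 change -0.87, SE 0.14, limma adjusted p = 0.00134). In both genes cfm6-1 replicate 1 was the highest of its group, 1.48 times the mean of replicates 2 and 3 in LNK1 and 1.53 times in LNK2. Without that library LNK1 was at 44.1% and LNK2 at 23.4% of wild type. The ratio of LNK1 to LNK2 was 0.294, 0.329 and 0.304 in wild type and 0.562, 0.610 and 0.547 in cfm6-1, with no overlap (exact permutation p = 0.1, adjusted p = 0.14). LNK2, which exceeded LNK1 3-fold or more in each wild type library, thus exceeded it by less in cfm6-1. Both genes share exon bases with loci on the opposite strand, 245 of 2667 bases in LNK1 with AT5G64160 and in LNK2 93 of 2926 with RPB5E and 44 with AT3G08405, and whether the counting used strand is not given in the sources used here. AT5G64160 ranged from 15.48 to 16.60 RPKM in the wild type libraries and from 16.46 to 19.14 in those of cfm6-1, and RPB5E was at 0.09 RPKM or less.

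Of the activators, RVE4 and RVE8 fell and RVE6 did not pass the test. RVE4 had the highest level of all members in both genotypes. It stood at 42.80, 44.17 and 42.59 RPKM in the wild type libraries and 31.02, 28.05 and 29.32 in those of cfm6-1, with no overlap, and at 68.2% of wild type (log2 change -0.54, SE 0.05, limma adjusted p = 7.40e-05). RVE8 was far lower, at 1.70, 1.82 and 2.04 RPKM in wild type and 0.98, 1.30 and 1.18 in cfm6-1, again with no overlap. It was at 62.2% of wild type (log2 change -0.41, SE 0.09, limma adjusted p = 0.00409). RVE6 stood at 6.26, 5.81 and 6.03 RPKM in the wild type libraries and 5.60, 5.20 and 6.05 in those of cfm6-1, and the groups overlapped. Its log2 change of -0.09 had a 95% interval from -0.24 to 0.06 (limma adjusted p = 0.254), which does not reach the fitted falls of RVE4 and RVE8. That interval overlaps the one of RVE8 (-0.61 to -0.21) but not the one of RVE4 (-0.65 to -0.42). The log2(RPKM + 1) scale understates the change of RVE8, near 1 RPKM, more than those of RVE4 and RVE6, so these intervals are not on an equal footing. In limma-voom on rebuilt reads, with no filter, the log2 changes were -0.68 (SE 0.15) for RVE8, -0.55 (SE 0.05) for RVE4 and -0.10 (SE 0.08) for RVE6. The log2 ratio of RVE6 to RVE8 within a library was 1.65 ± 0.15 in wild type and 2.19 ± 0.25 in cfm6-1, without overlap (exact permutation p = 0.1, adjusted p = 0.14). The ratio of RVE4 to RVE8 overlapped between the genotypes (exact permutation p = 0.7).

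In the output branch, RVE1 fell and RVE2 did not pass the test. RVE1, which links the clock to auxin, stood at 3.02, 4.17 and 3.98 RPKM in the wild type libraries and 2.48, 2.18 and 2.25 in those of cfm6-1, with no overlap. It was at 61.9% of wild type (log2 change -0.51, SE 0.10, limma adjusted p = 0.00370), and 225 of its 2017 exon bases are shared with AT5G17305 on the opposite strand. RVE2 stood at 9.12, 10.33 and 11.22 RPKM in the wild type libraries and 8.73, 10.78 and 11.97 in those of cfm6-1. Its groups overlapped throughout, and the 95% interval of its log2 change ran from -0.25 to 0.30 (limma adjusted p = 0.839). RVE1 relative to RVE2 was lower in every cfm6-1 library than in any wild type library, with log2 ratios of -2.13 ± 0.31 and -1.44 ± 0.14 (exact permutation p = 0.1, adjusted p = 0.14).

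RVE7 stood at 20.44, 15.58 and 16.20 RPKM in the wild type libraries and 14.06, 11.72 and 12.21 in those of cfm6-1, or 72.7% of wild type (log2 change -0.42, SE 0.11, limma adjusted p = 0.0109). All cfm6-1 values lay below the wild type ones. The largest multiply mapped share of RVE7 reads was 0.410, so its level is uncertain. AT3G10113, which the reference annotation describes as a homeodomain-like protein like RVE7, had a share of up to 0.524 and was at 0.08 RPKM or less in all libraries.

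The order of the levels within wild type was RVE4, LNK2, RVE7, LNK1, RVE2, RVE6, RVE1, RVE8, CCA1 and LHY. Neighbours in this order had separate ranges except LNK1 and RVE2 (10.4 ± 1.01 and 10.2 ± 1.05 RPKM), and RVE8 and CCA1 (1.85 ± 0.172 and 1.83 ± 0.297). In cfm6-1, LNK2 stood below RVE7 and RVE2, and LNK1 below RVE6. There RVE7 overlapped with RVE2, RVE2 with LNK2, and RVE6 with LNK1, while RVE8 (1.15 ± 0.162 RPKM) and CCA1 (0.417 ± 0.0153) had separate ranges.

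**Figure D3:**
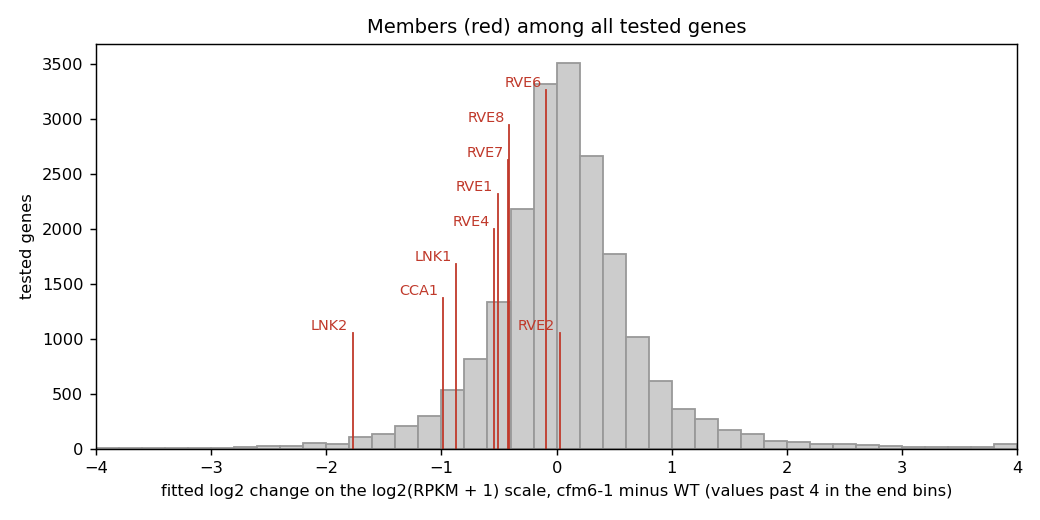
Fitted log2 changes of all 20047 tested loci in bins of 0.2, with the 9 tested members marked in red; the horizontal axis is the cfm6-1 minus wild type difference on the log2(RPKM + 1) scale and the vertical axis the number of loci. LNK2 lies at -1.77, CCA1 and LNK1 at -0.99 and -0.87, and RVE2 near 0.

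Ratios between genes of 1 library depend little on how libraries are scaled to each other. Of the 7 pairs compared, 5 had no overlap between the genotypes: CCA1 to LHY, RVE6 to RVE8, RVE1 to RVE2, LNK1 to LNK2, and CCA1 to the evening gene TOC1. Lack of overlap was common among single tested loci, 32.8% of which lay lower and 41.5% higher in cfm6-1. Its share among other gene pairs was not counted, so the 5 pairs cannot be called unusual. The log2 ratio of CCA1 to TOC1 was -4.49, -4.69 and -5.11 in wild type replicates 1 to 3, and -6.88, -6.82 and -7.09 in cfm6-1 replicates 1 to 3, a difference of -2.16 (exact permutation p = 0.1, adjusted p = 0.14). With 1 RPKM added to each gene in place of 0.1, the difference was -1.26. The evening gene exceeded the dawn gene in all 6 libraries, and by more in cfm6-1. The ratio of RVE2 to RVE7 overlapped (exact permutation p = 0.3, adjusted p = 0.35).

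**Figure D4:**
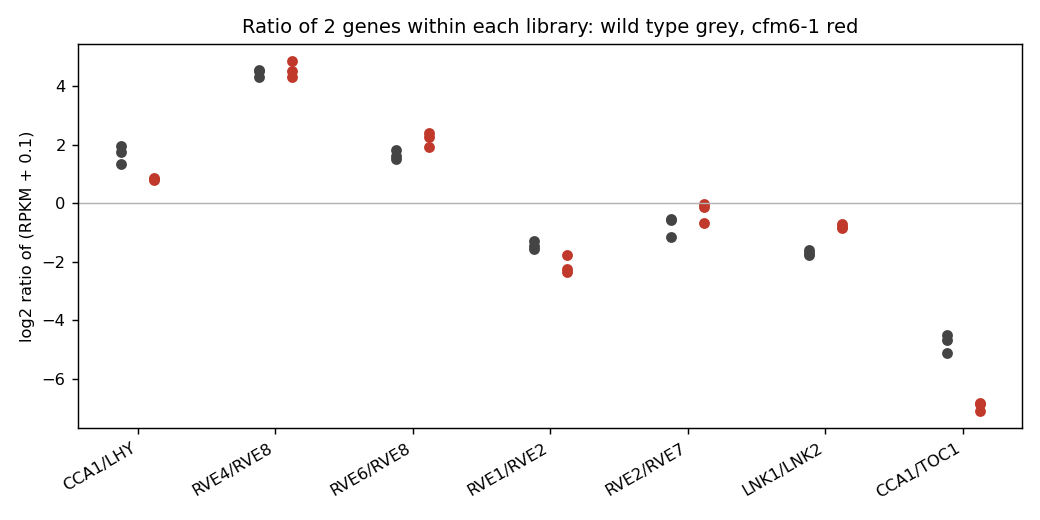
log2 ratio of 2 genes within each library, with 0.1 RPKM added to each gene, for 7 pairs; each point is 1 library, wild type in grey and cfm6-1 in red. The points of the genotypes are apart in 5 pairs and overlap for RVE4/RVE8 and RVE2/RVE7.

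Among 5 further genes of the RVE and LNK families, both LNK genes fell, while AT4G01280 rose, as did ASG4 in fits without the filter. LNK3 stood at 6.23, 6.68 and 5.63 RPKM in the wild type libraries and 1.82, 1.05 and 0.76 in those of cfm6-1 (19.6% of wild type, limma adjusted p = 9.09e-05). LNK4 was at 13.93, 12.47 and 11.74 RPKM and at 4.15, 2.48 and 2.49 (23.9%, limma adjusted p = 6.01e-05). As in LNK1 and LNK2, cfm6-1 replicate 1 was the highest of its group, 2.01 and 1.67 times the mean of the other two. AT4G01280, a homeodomain-like protein, rose to 121% of wild type (limma adjusted p = 0.00252). ASG4, of the same domain class, was below the filter at 0.230 ± 0.0700 and 0.427 ± 0.0306 RPKM, from 30 rebuilt reads in wild type and 56 in cfm6-1. In the fit without the filter it rose (log2 change 0.22, limma adjusted p = 0.00786), as it did in limma-voom on rebuilt reads (0.89, adjusted p = 0.0327).

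The other clock genes were called in both directions. Of 17 genes, 8 fell and 7 rose, against 30.2% lower and 38.6% higher over all tested loci, so the share that rose is near the background. Their median log2 change was -0.07 (0.02 without loci of shared reads). The pseudo-response regulators that follow CCA1 and LHY in the day fell: PRR7 averaged 86.2 ± 3.59 RPKM for the wild type and 34.7 ± 6.30 for cfm6-1 (limma adjusted p = 6.22e-05), and PRR5 at 28.9 ± 2.42 and 12.3 ± 2.17 (adjusted p = 1.38e-04). PRR9, the earliest of them, was at 23.1% of wild type (limma adjusted p = 3.87e-05), but its multiply mapped share reached 0.444. PRR9 also passed the filter only through the wild type libraries (limma adjusted p = 1.50e-04 without the filter). GI, a late-day gene, fell to 75.1% (limma adjusted p = 9.74e-04), and LKP2, a blue light receptor of the ZTL family, to 71.2% (adjusted p = 1.19e-04; multiply mapped share up to 0.201). The genes that rose included parts of the evening complex, a repressor that acts at night. BOA, a close relative of LUX, rose 2.27-fold, from 6.52 ± 1.26 to 14.8 ± 1.38 RPKM, ELF4 1.55-fold and LUX 1.29-fold (limma adjusted p = 2.25e-04, 0.00523 and 4.57e-04). ELF3, the scaffold of the same complex, did not pass the test, at 27.9 ± 0.503 and 28.3 ± 1.01 RPKM (log2 change 0.02, 95% interval -0.08 to 0.13, limma adjusted p = 0.697); it was chosen for naming after its values were seen. PRR3 rose 1.60-fold and JMJD5, a histone demethylase-like protein that is co-expressed with TOC1, 3.15-fold (limma adjusted p = 3.68e-05 and 7.23e-05). TOC1, the evening repressor of CCA1 and LHY, rose from 51.9 ± 3.31 to 62.9 ± 4.75 RPKM (limma adjusted p = 0.0105), a call that was lost after quantile normalization (limma adjusted p = 0.0688), where 32.7% of all loci were called higher and 36.2% lower.

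**Figure D5:**
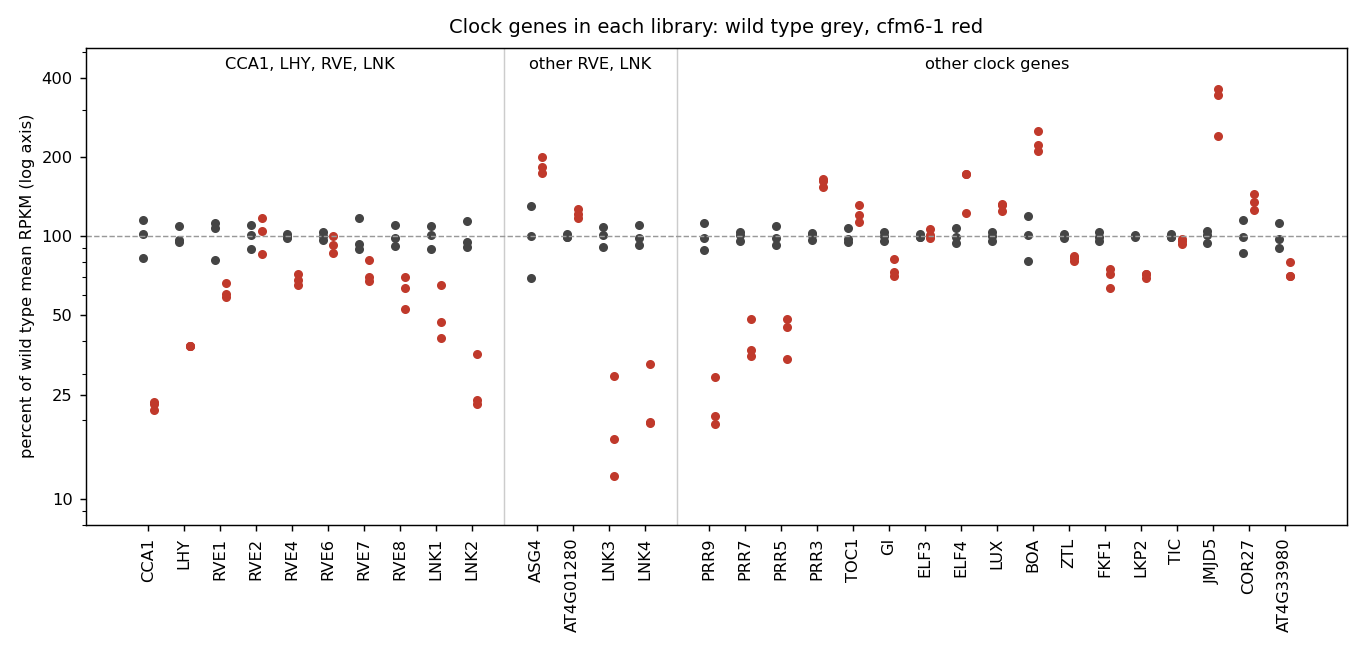
Level of each clock gene in each library as a percentage of its wild type mean, on a log axis, wild type in grey and cfm6-1 in red; the dashed line is 100%. LNK3, LNK4, CCA1 and PRR9 lie lowest in cfm6-1, and JMJD5 and BOA highest.

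The evening element, to which the CCA1 and RVE proteins bind, was found in the 300-base windows of 6 of these 17 clock genes, against 2.79% of all windows. The 6 sites are shown with 12 bases on each side because their genes moved in both directions. Capitals mark the element, which reads AGATATTTT where it lies on the other strand.
PRR5, chr5:8358713-8358745, minus strand: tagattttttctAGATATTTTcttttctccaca
TOC1, chr5:24674800-24674832, plus strand: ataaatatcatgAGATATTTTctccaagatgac
LUX, chr3:17182977-17183009, plus strand: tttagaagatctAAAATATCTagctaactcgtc
BOA, chr5:24003833-24003865, plus strand: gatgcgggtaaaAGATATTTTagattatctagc
FKF1, chr1:25508441-25508473, plus strand: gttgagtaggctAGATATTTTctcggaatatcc
COR27, chr5:17199929-17199961, minus strand: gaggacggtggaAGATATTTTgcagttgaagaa
TOC1, LUX, BOA and COR27 rose, and PRR5 and FKF1 fell. FKF1, a blue light receptor of flowering control, was at 70.2% of wild type, and COR27, a cold-induced clock gene, at 135% (limma adjusted p = 7.25e-04 and 0.00742); these 2 genes were chosen for naming after their values were seen.

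Genes that control CCA1 and LHY, or bind their proteins, were called in both directions, at shares near or below those of all tested loci. Of 18, 5 rose, 5 fell and 8 did not pass the test, against 38.6% higher and 30.2% lower over all tested loci. After quantile normalization 4 rose and 7 fell, against 32.7% higher and 36.2% lower over all tested loci, so the share that fell was slightly above that of all loci. BZO2H3, the sugar-responsive factor also known as bZIP63, fell from 68.8 ± 1.96 to 26.3 ± 0.313 RPKM (limma adjusted p = 1.42e-06). CHE, a repressor of CCA1, was at 79.5% of wild type, and TCP22, an activator of CCA1, at 64.4%, while TCP20, likewise known as an activator of CCA1, rose 1.67-fold (limma adjusted p = 9.70e-04, 1.86e-04 and 3.86e-04). FHY3, a light signalling factor, fell to 83.9% and HY5 rose 1.47-fold (limma adjusted p = 0.00128 and 0.00190). CKA1 and CKA2, catalytic subunits of the kinase CK2 that phosphorylates CCA1, rose 1.22- and 1.27-fold (limma adjusted p = 7.12e-04 and 0.00106).

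Among 20 output genes of the clock, 13 of the 18 tested fell and 3 rose, against 30.2% lower and 38.6% higher over all tested loci, with a median log2 change of -0.55. In the fit without loci of shared reads 11 of 16 fell and 3 rose. The shares of all loci lower and higher in that fit were not counted. PORA, a protochlorophyllide reductase known as a target of RVE1, fell from 9.46 ± 3.99 to 0.103 ± 0.0231 RPKM (limma adjusted p = 2.61e-05). PORA passed the filter only through the wild type libraries, and its cfm6-1 level rests on 26 rebuilt reads (limma adjusted p = 1.45e-04 without the filter). CAB2, an antenna gene used as a reporter of the morning clock, was at 19.1% of wild type, and CDF3, a repressor of flowering genes, at 29.2% (limma adjusted p = 5.10e-05 and 4.87e-05). CAB1, of the same list and chosen for naming after its values were seen, fell less, to 68.2% (limma adjusted p = 0.00913). Its call was lost in the fit without the filter (limma adjusted p = 0.381). The growth factors PIF4 and PIF5 were at 63.9% and 59.1%, and CDF2 at 63.4% (limma adjusted p = 1.64e-04, 3.29e-05 and 1.83e-04). AT1G69570 fell to 67.9% (limma adjusted p = 2.18e-04), but its multiply mapped share reached 0.954, so its level is uncertain. The photoreceptor gene PHYB rose 1.34-fold (limma adjusted p = 5.71e-04). GRP7, an RNA-binding protein that peaks in the evening and was chosen for naming after its values were seen, rose from 2909 ± 191 to 4621 ± 261 RPKM (limma adjusted p = 9.33e-04).

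Markers of the organs in a whole seedling also differed. Over all tested loci, 30.2% were lower and 38.6% higher. Of 10 root markers, 7 fell and 1, PYK10, rose. Their summed level was 1700 to 1911 RPKM in wild type and 2290 to 2725 in cfm6-1, most of it from PYK10. Without PYK10 the sum was 88.7 to 101 RPKM in wild type and 53.6 to 61.4 in cfm6-1. Of 9 leaf markers, 7 were tested, 4 rose and 2 fell, with summed levels of 69.3 to 73.9 and 75.1 to 85.1 RPKM. No marker was at 0 in all libraries. Their part in the changes of the clock genes was not tested.

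The authors' deposited table gives a log2 fold change only at an unadjusted p up to 0.05. CCA1, LHY, RVE1, RVE4, RVE8, LNK1 and LNK2 have one there, negative in each case. The share of all loci with a fold change in that table was not counted, so nothing is read from how many members have one. The authors' deposited table lists -2.15 for CCA1 (adjusted p = 0.0534), -1.90 for LNK2 (adjusted p = 0.0220) and -1.40 for LHY (adjusted p = 0.0302). RVE2, RVE6 and RVE7 have no fold change in the authors' deposited table, with adjusted p of 0.964, 0.266 and 0.139. The sign in the authors' deposited table follows its own column codes, which the labels do not tie to genotypes.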

How the data were processed

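Total RNA of whole Arabidopsis seedlings, treated with DNase, was sequenced as 100 bp single-end reads, per the labels' protocols. TAIR10 is the build named by the submitters' processing notes, and the sources used here do not give aligner, counting tool or annotation release. The authors deposited RPKM values to 2 decimals, and for each locus a fraction, read from its column name as the highest multiply mapped share among the libraries. A second deposited table holds gene model length, p-values and log2 fold changes. Its 6 per-library columns, under codes not found in the labels, were not used, nor was a table of mapping totals.

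limma 3.58.1 in R 4.3.3 was fitted to log2(RPKM + 1), with a mean-variance trend and genotype as the factor, over the loci that reached 1 RPKM in 3 or more libraries; the fit was tested on simulated data. Percentages and folds are ratios of mean RPKM. Depth was taken as the value between 20 and 80 M reads at which loci under 0.3 kb without multiply mapped reads came closest to whole reads; of the 452 to 511 values used in each library, 99.1% to 100% lay within 0.1 of a whole read. Replicates differed by more than sampling noise (chi-square 11.3 to 27.3 per degree of freedom). Promoters came from RefSeq TAIR10.1, which keeps the nuclear chromosomes of TAIR10; all 89 listed loci were matched there by locus tag, and names not in that table are those of the chosen gene lists (RVE6). Loci with a multiply mapped share above 0.1 are given as uncertain.

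The members, gene lists and tests were chosen with earlier results of these data known. Named were all members and their relatives, up to 8 genes per other list in order of adjusted p, fixed clock genes, and the 3 loci nearest in pattern to CCA1 and LHY. Alternatives were another pseudocount, no filter, 2 scalings, a replicate block, each library left out, limma-voom on rebuilt reads, and leaving out loci with a share above 0.1; limma-voom without the filter was chosen after seeing the data.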

Additional observations from a re-analysis of the deposited data

How the results depend on the processing

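The falls of CCA1, RVE1, RVE4, RVE8, LNK1 and LNK2 kept their direction and their call under each alternative that could test them, as did that of RVE7. CCA1 was below the filter when any wild type library was left out, and RVE7 was not tested without loci of shared reads, so the count of members that fell ran from 6 to 8 around 7. RVE6 did not pass in any alternative. RVE2 did not pass either, and its log2 change of 0.03 turned to -0.02 with median-of-ratios scaling, to -0.06 after quantile normalization, and to values between -0.06 and 0.14 as single libraries were left out; the cause was not tested. LHY, at -0.33 with a pseudocount of 1, was at -1.04 with 0.1 and at -1.37 in limma-voom without the filter, since the pseudocount is large beside its level. The RVE4 to RVE8 ratio (0.09) was -0.13 with a pseudocount of 1 and between -0.05 and 0.21 as single libraries were left out, and the CCA1 to TOC1 ratio (-2.16) was -1.26 with a pseudocount of 1. Same-numbered libraries shared only a number: their deviations from the genotype means correlated at 0.03, -0.14 and 0.00 across genes, and a replicate block gave 13255 called loci rather than 13799, with 7 members lower. Depth limits the values of low genes: LHY had 29 to 88 rebuilt reads per library, ASG4 7 to 19 and AT3G10113 0 to 4.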

Other observations

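Within cfm6-1, replicate 1 stood apart from replicates 2 and 3 in part of the clock. It was the highest of the 3 libraries in LNK1, LNK2, LNK3 and LNK4, at 1.48 to 2.01 times the mean of the other two, and likewise in PRR9 (1.45), PRR7 (1.35), PRR5 (1.22), CDF3 (1.38) and CAB2 (1.59). ELF4 and JMJD5, which were higher in cfm6-1 than in wild type, were lower in replicate 1 than in the other two, at 0.706 and 0.686 of their mean. These genes were picked after their values were seen. In all of them replicate 1 lay nearer to wild type. CCA1, at 1.05 times the mean of the other two, and RVE4, at 1.08 times, showed little of this, and RVE8 was lower in replicate 1, at 0.790 times. The median difference over all tested loci was -0.01 on the log2(RPKM + 1) scale. Over the 17 other clock genes, replicate 1 was the highest in 6 and the lowest in 7, and replicate 3 the highest in 7 and the lowest in 7. Across loci, replicate 1 was not the most distant library of its group. The chi-square per degree of freedom was 15 between replicates 1 and 2, 24.3 between 1 and 3, and 27.3 between 2 and 3.

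The loci whose pattern over the 6 libraries was nearest to that of CCA1, by the root mean square difference of log2(RPKM + 1) centred on each gene's mean, were MPK12 (0.027), AT4G36530 (0.032) and PSAF (0.034), from 18713 candidates. MPK12, a MAP kinase gene known from guard cells, averaged 8.70 ± 1.02 RPKM in the wild type and 3.96 ± 0.172 in the mutant. PSAF, a photosystem I subunit gene, was at 1672 ± 194 and 861 ± 29.5 RPKM (n = 3). Nearest to LHY were MRB1 (0.013), SRF3 (0.015) and EX2 (0.015). The measure compares differences on that scale, which understates the fold of genes at low RPKM such as LHY and CCA1.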
